A study of Mus musculus with 6 samples.

Results

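Dense clusters are stretches of mouse liver chromatin where many binding sites of thyroid hormone receptor β1 (TRβ1) lay close together. Members were chosen by the positions of called peaks: on chromosomes 1 to 19 the peaks of both TRβ1 lists that shared at least 1 bp were merged into union sites, neighbouring sites no more than 12.5 kb apart were chained, and sites in chains of 10 or more were kept. Of 68532 union sites, 15432 were members (22.5%, exact 95% interval 22.2 to 22.8%). They formed 1070 clusters, of which 1068 lay wholly outside 5 regions that the rule leaves out and 2 crossed the edge of one, contributing 7 sites. Values per cluster below are for the 1068 whole clusters and their 15425 sites, and values per site are for all 15432.

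The study mapped where biotinylated TRβ1 was bound by ChIP-seq in liver. All mice were heterozygous for the biotin ligase BirA, 9 to 10 weeks old, and ate for 3 weeks a diet with propylthiouracil (PTU), which blocks thyroid hormone synthesis. They then received adenovirus through the tail vein and 4 days of injections. The TRb_PTU livers got the virus for GFP and biotinylated TRβ1 and then saline, the TRb_T3 livers got the same virus and then triiodothyronine (T3), and the control GFP_PTU livers got virus for GFP alone and then saline. Disuccinimidyl glutarate and then formaldehyde served as crosslinkers, and streptavidin captured the tagged receptor. The captured receptor was thus the virally delivered one. The labels state neither the promoter that drove it nor how many animals went into a library.

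TRβ1 is a nuclear receptor that binds DNA with and without its hormone, usually as a heterodimer with RXR at repeats of a short half-site. Without T3 it is known to recruit corepressors, and with T3 coactivators. In liver it controls genes of lipid, cholesterol and glucose metabolism. Closely spaced binding sites of a regulator are common around genes that are highly active in a tissue. Positions here are on the mouse build mm9, and genes and DNA sequence at the clusters were not analysed here.

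There was 1 library per condition, so no test between conditions was made. Intervals are exact 95% binomial (Clopper-Pearson) intervals over sites or peaks and cover counting error only. The TRb_PTU list held 51297 peaks on chromosomes 1 to 19 and the TRb_T3 list 45406. Read depth is unknown, and a difference in peak numbers cannot be told apart from a difference in depth. Each peak carries the authors' peak caller's score, used here only within a list. The scores ran from 2 to 615.60 in TRb_PTU (median 19.35) and from 2.02 to 579.09 in TRb_T3 (median 22.13).

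Dense clusters held a median of 13 sites (quartiles 11 and 16, highest 47) over a median span of 41921 bp (quartiles 31201 and 55511 bp, lowest 8839, highest 186857 bp). In all, 139 clusters had 20 or more sites and 29 had 30 or more. Sites covered a median of 8.49% of a cluster's span, and a site occurred every 3117 bp on the median. The gap between neighbouring sites was 1874 bp on the median, against 2191 bp in chains of 2 to 9 sites. The threshold cut through a continuum: chains of 9 sites, just outside, numbered 285 with a median span of 29499 bp, and chains of 10, just inside, numbered 208 with 30032 bp.

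Because both lists built the chains, the crowding was also read in a list that took no part. Chains of 10 or more peaks built from TRb_PTU alone numbered 595, and within them and 12.5 kb on either side there were 142 TRb_T3 peaks per Mb. Around chains of 2 to 9 TRb_PTU peaks, with the same flanks, there were 76.7, and around solitary TRb_PTU peaks 34.1. Between the first and last peak of each chromosome the TRb_T3 list averaged 18.9 peaks per Mb. Built from TRb_T3 alone, the 417 chains of 10 or more had 166 TRb_PTU peaks per Mb in and around them, against 92.8 at chains of 2 to 9, 43.1 around solitary peaks and 21.3 on average. With 12.5 kb on either side, the order was the same in both lists. The flanks, however, made up more of the window for smaller chains. TRb_PTU chains of 10 or more spanned 26.8 Mb of a 41.7 Mb window. Chains of 2 to 9 spanned 90.1 of 329 Mb, and solitary peaks 2.39 of 258 Mb. This order depended on the flanks and cannot by itself show that density rose with chain size. Within the spans alone, which begin and end at a peak of the building list, the order was reversed. There the TRb_T3 density was 209 peaks per Mb in chains of 10 or more and 228 in chains of 2 to 9, and the TRb_PTU density 242 and 266.

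Dense clusters took different shares of the chromosomes. They held 29.2% of the union sites of chromosome 15 (interval 27.6 to 30.9%) and 28.6% of those of chromosome 8 (27.2 to 30.1%). On chromosome 13 the share was 14.8% (13.6 to 16.2%) and on chromosome 10 it was 16.1% (14.9 to 17.4%), where 1 of the left-out regions lies. The most clusters, 93 whole ones, lay on chromosome 11.

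The first comparison asked whether sites in dense clusters were found in both hormone states more often than sites elsewhere. A site was called shared when it held a peak of both lists, PTU-only when it held TRb_PTU peaks alone and T3-only when it held TRb_T3 peaks alone. Over all union sites 40.0% were shared, 34.5% were PTU-only and 25.5% were T3-only. In dense clusters 7243 sites were shared (46.9%, interval 46.1 to 47.7%), 4905 were PTU-only (31.8%, 31.1 to 32.5%) and 3284 were T3-only (21.3%, 20.6 to 21.9%). Of the 11150 solitary sites, with no other site within 12.5 kb, 30.4% were shared (29.6 to 31.3%), 38.4% were PTU-only and 31.2% were T3-only. Clustered sites were thus shared more often than solitary ones by 16.5 percentage points. The rule read the peaks of both lists, and a site with an unmatched neighbour cannot be solitary, so these shares are a description. With chains built from 1 list and peaks matched on score the difference in overlap was 2.07 points for TRb_PTU and 3.53 for TRb_T3. With equal numbers of top-scored peaks taken from both lists the PTU-only share in clusters was 26.7% and the T3-only share 25.4%, which brings them close to each other.

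The share in both lists rose with the size of the chain, and the T3-only share fell. These shares come from chains built from both lists and were not matched on score. The median score percentile was also higher in larger chains. It was 48.1 in chains of 2 to 4 and 56.5 in chains of 30 or more for TRb_PTU, and 49.5 and 55.2 for TRb_T3. From chains of 2 to 4, over 5 to 9, 10 to 14 and 15 to 19, the shared percentage went from 37.4 over 43.2 and 46.2 to 47.2. It was 47.2% in chains of 20 to 29 and 50.8% in chains of 30 or more (interval 47.7 to 53.9%). Between the dense size classes the intervals of neighbouring shared percentages overlapped. The T3-only percentage went from 27.3 over 23.6, 22.7 and 20.7 to 18.4 in chains of 20 to 29, with 19.2% in chains of 30 or more (16.9 to 21.8%). The PTU-only percentage moved less, from 35.3% in chains of 2 to 4 to between 29.9 and 34.4% in the dense size classes. In dense clusters there were 1.49 PTU-only sites for each T3-only site, against 1.34 in chains of 2 to 9 and 1.23 among solitary sites. The number of TRb_PTU peaks for each TRb_T3 peak differed less. It was 1.11 at solitary sites, 1.12 and 1.13 in chains of 2 to 4 and 5 to 9, and 1.12 to 1.23 in the dense size classes. Where more sites are shared, an excess of TRb_PTU peaks falls on fewer single-list sites. The rise in the site ratio is thus not by itself a lean to PTU. The threshold left no step, with 45.8% shared in chains of 9 sites (43.9 to 47.8%) and 47.0% in chains of 10 (44.9 to 49.2%).

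**Figure D1:**
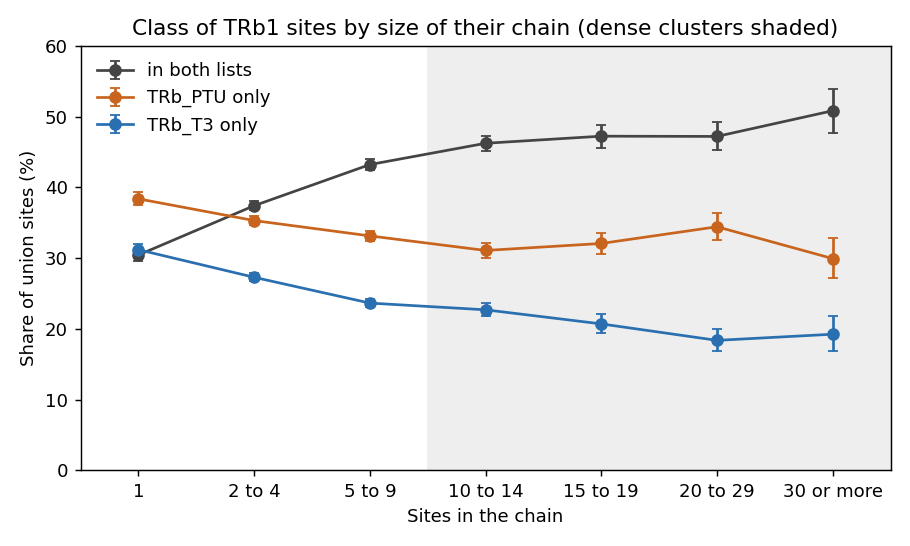
Share of union sites (y axis, percent) that were in both lists, in TRb_PTU only or in TRb_T3 only, by the number of sites in their chain (x axis). Points are shares and bars are exact 95% binomial intervals. The shaded classes are the dense clusters, where the shared class is highest at 46.2 to 50.8% and T3-only is lowest at 18.4 to 22.7%. Chains were built from both lists, and the shares were not matched on score.

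By chromosome, under the same rule and with no independent support, the shared percentage was higher in dense clusters than in the other sites in 19 of 19. The T3-only percentage was lower in 18 of 19, chromosome 8 being the exception with 24.9% in clusters and 24.7% elsewhere. The PTU-only percentage was lower in 17 of 19, the exceptions being chromosome 14 (35.2 and 34.4%) and chromosome 12 (32.9% in both). The other sites included the 794 sites of the left-out regions, 516 of them in chains of 10 or more. Chromosome 8 holds such a region. With these regions kept, clusters of all chromosomes were 32.3% PTU-only, against 31.8%, and 20.9% T3-only, against 21.3%. The counts by chromosome were not repeated without the left-out sites. The largest PTU-only share in clusters was 36.2%, on chromosome 7, and the largest T3-only share was 29.6%, on chromosome 13. Both were below the shares of the other sites of those chromosomes, 36.9% PTU-only on chromosome 7 and 31.7% T3-only on chromosome 13.

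Peaks in dense clusters scored somewhat higher than solitary ones. In TRb_PTU the median score was 21.79 for the 12227 cluster peaks and 16.52 for solitary ones, and 54.1% lay above the list median (53.2 to 55.0%) against 43.2% (42.1 to 44.3%). In TRb_T3 it was 24.24 for the 10678 cluster peaks and 19.07 for solitary ones, and 53.5% lay above the list median (52.6 to 54.5%) against 43.6% (42.5 to 44.8%). The top score decile of the list took in 13.5% of TRb_PTU and 12.4% of TRb_T3 cluster peaks, against 5.41 and 6.49% of solitary peaks. Peaks were also wider in clusters, with a median of 224 against 193 bp in TRb_PTU and 201 against 181 bp in TRb_T3.

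Overlap between lists rises with score, so clusters and solitary sites were also set side by side at matched score. These values use the same chains and are again a description. Among all peaks of chromosomes 1 to 19, 53.9% of TRb_PTU peaks and 61.5% of TRb_T3 peaks were overlapped by the other list. In dense clusters the shares were 59.9% (59.0 to 60.8%) and 69.2% (68.4 to 70.1%), and at solitary sites 44.4% (43.3 to 45.5%) and 49.7% (48.6 to 50.9%). Within each of the 10 score deciles of either list the share overlapped was higher for clustered peaks under this rule. The difference averaged over deciles was 9.12 points for TRb_PTU and 15.3 points for TRb_T3, against 15.5 and 19.5 points with all peaks pooled. In the lowest TRb_T3 decile 45.4% of clustered peaks were overlapped and 31.5% of solitary ones. In the highest these were 94.6 and 84.9%.

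**Figure D2:**
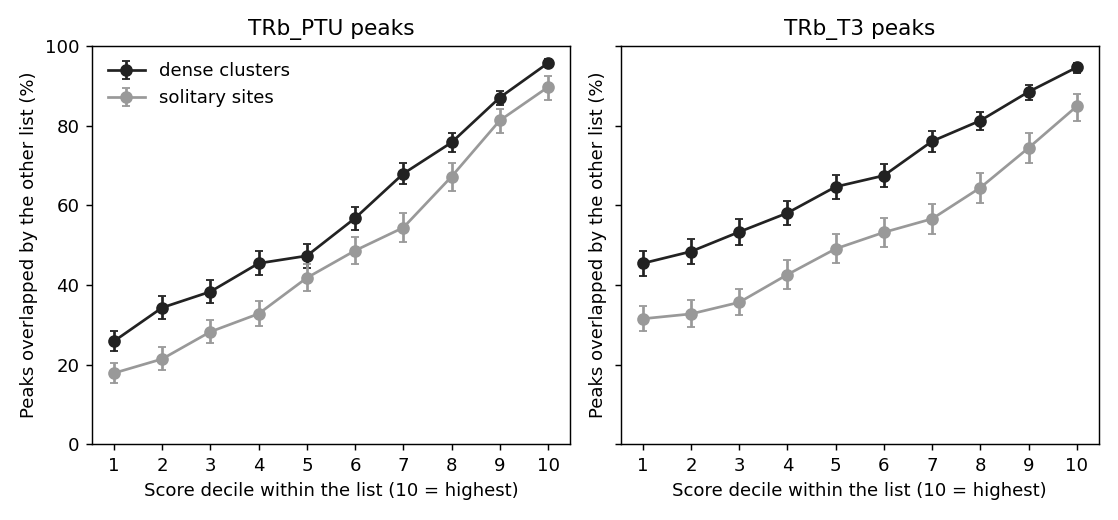
Percentage of peaks overlapped by the other list (y axis) by score decile within their own list (x axis), for TRb_PTU peaks (left) and TRb_T3 peaks (right), in dense clusters (dark) and at solitary sites (grey), with exact 95% binomial intervals. The dark points lie above the grey ones in every decile, with chains built from both lists; with chains built from 1 list the mean difference was 2.07 points for TRb_PTU and 3.53 for TRb_T3.

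The size of this difference depended on how chains were built. With chains built from the peaks' own list alone, and overlap read in the other list, peaks of chains of 10 or more were overlapped in 57.1% of cases in TRb_PTU (56.0 to 58.2%) and solitary peaks in 49.6% (48.6 to 50.5%). In TRb_T3 the shares were 64.7% (63.4 to 66.0%) and 56.2% (55.2 to 57.1%). The differences were then 7.55 and 8.56 points, with intervals that did not overlap, and the dense share was the higher in 19 of 19 chromosomes for either list. Matched on score deciles as well, the mean differences were 2.07 points in TRb_PTU and 3.53 points in TRb_T3. The dense share was then higher in 9 of 10 deciles of either list, with intervals apart in 1 decile of TRb_PTU and in the 4 highest deciles of TRb_T3. In the highest decile of TRb_T3 the shares were 93.3% in dense chains (91.3 to 94.99%) and 88.0% for solitary peaks (85.1 to 90.4%), and in the lowest 38.7% (34.4 to 43.0%) and 37.0% (34.2 to 39.8%). In the lowest decile of TRb_PTU they were 22.9% (20.1 to 26.0%) and 22.6% (20.2 to 25.1%). In the other deciles the intervals overlapped. A peak is solitary under the union rule only when it has no neighbour in either list, so the pooled rule and the list's own rule do not call the same peaks solitary.

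Scores spread widely within a cluster. The highest score of a cluster was a median of 5.25 times the cluster's median score in TRb_PTU (quartiles 3.48 and 7.77) and 4.39 times in TRb_T3 (2.74 and 6.48). It stood at a median percentile of 95.5 of the TRb_PTU list and 93.6 of the TRb_T3 list. The highest of many peaks lies well above their median in any list with a long upper tail. The same ratio for peaks outside clusters was not computed. The highest-scored site of the cluster was a shared one in 94.3% of clusters for TRb_PTU (92.7 to 95.6%) and in 94.1% for TRb_T3 (92.5 to 95.4%). Among all clustered peaks, 95.7 and 94.6% were overlapped in the top score decile and 87.0 and 88.5% in the decile below. In 271 clusters for TRb_PTU and 375 for TRb_T3 no site was in the top decile, so these shares are not matched on score. The highest-scored site was the same in both lists in 523 of 1066 clusters (49.1%, 46.0 to 52.1%). In the other clusters a different site was the strongest in each hormone state.

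The strongest site was the first or last of the cluster in 11.3% of clusters for TRb_PTU (9.50 to 13.4%) and in 13.0% for TRb_T3 (11.1 to 15.2%), while such end sites made up 15.2% of a cluster on average. Its median position was 47.2% of the way along the span in TRb_PTU (quartiles 21.1 and 75.03%) and 48.1% in TRb_T3 (22.3 and 75.4%). The first and last sites of clusters were shared in 41.7% of cases (39.6 to 43.8%) and the inner sites in 47.8% (46.9 to 48.6%). The PTU-only share was 36.3% at the ends and 31.0% inside, and the T3-only share 22.0 and 21.2%. End sites also scored lower, with a median percentile of 50.7 against 55.4 inside in TRb_PTU and 50.2 against 54.7 in TRb_T3. Ends and inner sites were not matched on score.

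The highest-scored member of both lists lay on chromosome 7 at 52130191 to 52130584, in a cluster of 15 sites, with a score of 615.60 in TRb_PTU and 579.09 in TRb_T3. The next members of TRb_PTU were on chromosome 5, at 140679940 to 140680364 (606.02), 122448749 to 122449714 (478.46) and 106255935 to 106256586 (456.60). All 10 top members of each list were shared sites, and 3 sites were among the top 10 of both. At 2 of the top TRb_T3 members the TRb_PTU peak ranked clearly lower in its own list than the others did. The site on chromosome 2 at 153738664 to 153739167 scored 441.70 in TRb_T3 and 92.72 in TRb_PTU (percentile 91.2). The site on chromosome 11 at 79576717 to 79577507 scored 379.23 in TRb_T3 and 25.40 in TRb_PTU, at percentile 59.8 of that list.

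The second question was how evenly the hormone states were mixed within a cluster. Most clusters were mixed, with 858 of 1068 holding all 3 classes. The median cluster was 46.2% shared (quartiles 36.4 and 57.9%), 30% PTU-only (18.2 and 45.5%) and 18.8% T3-only (9.09 and 31.3%). PTU-only sites outnumbered T3-only sites in 628 clusters (58.8%) and the reverse held in 346 (32.4%). Only 11 clusters were PTU-only at 80% or more of their sites, 6 were T3-only and 21 were shared at that level. At 50% or more the numbers were 230, 91 and 497. At 1 cluster TRb_PTU had no peak at all, and at 1 other TRb_T3 had none.

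**Figure D3:**
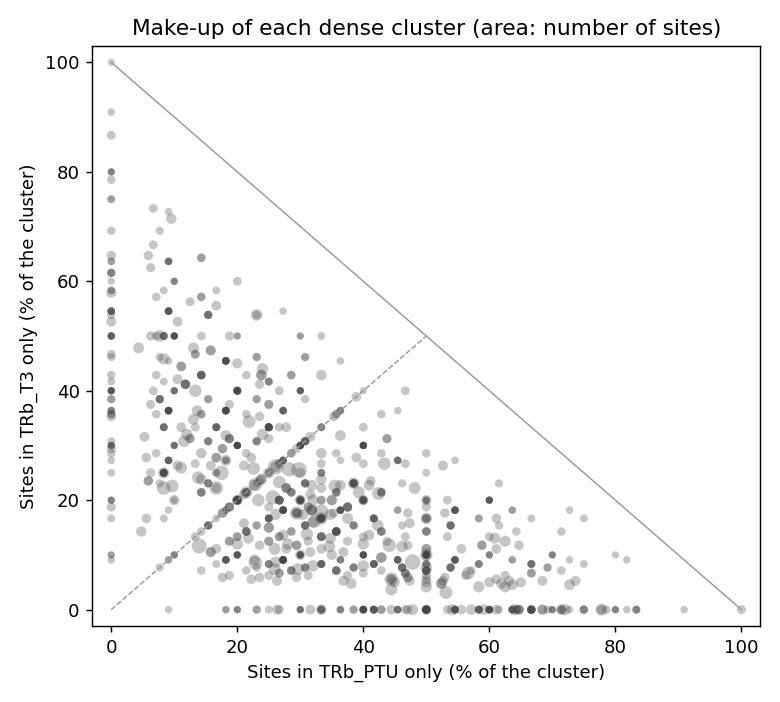
Each point is 1 of the 1068 whole dense clusters, placed by the percentage of its sites in TRb_PTU only (x axis) and in TRb_T3 only (y axis), with area by number of sites; the solid line marks clusters with no shared site and the dashed line equal numbers of both classes. Most points lie low and left, around the medians of 30% and 18.8%, and single clusters reach 100% on either axis.

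Single-list sites in dense clusters were PTU-only in 59.9% of cases and otherwise T3-only. Pairs drawn without regard to position would thus often be of the same class, and that share was not computed. Of 4129 neighbouring pairs in which both sites were single-list, 3018 were of the same class (73.1%, 71.7 to 74.4%), 1987 as PTU-only and 1031 as T3-only. The share fell with the gap, from 83.8% at gaps up to 500 bp (81.2 to 86.2%) over 74.8 and 69.1% to 66.2% at gaps over 5000 bp (63.2 to 69.0%). Chains of 2 to 9 sites gave 88.5% at gaps up to 500 bp and 63.4% over 5000 bp, and 74.2% in all. The fall with distance was thus also present in smaller chains.

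The 10 clusters with the most sites held between 36 and 47. The largest lay on chromosome 2 from 167385350 to 167553065, with 47 sites, of which 21 were shared, 14 PTU-only and 12 T3-only. Its strongest site was the same in both lists, beginning at 167539861, with a score of 245.61 in TRb_PTU and 272.21 in TRb_T3. The tenth lay on the same chromosome from 167631392 to 167713736, with 36 sites, of which 22 were shared. There the strongest site differed, beginning at 167686028 in TRb_PTU (330.36) and at 167667936 in TRb_T3 (379.98).

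Of the clusters with 46 sites, that on chromosome 19 from 3929671 to 4080821 leaned to PTU, with 22 PTU-only and 4 T3-only sites. That on chromosome 5 from 135408107 to 135594963 had 12 of each and 22 shared. The cluster on chromosome 14 from 26270629 to 26374483 was the most widely shared of the 10, with 32 of 43 sites in both lists, 6 PTU-only and 5 T3-only. The cluster on chromosome 19 from 5786551 to 5851649 had 25 of 36 sites shared and the closest spacing of the 10, with 1808 bp per site. The others, on chromosomes 7, 10, 8 and 1, began at 106286164, 59341990, 129038047 and 74025967. They had 40, 39, 39 and 39 sites, of which 23, 19, 21 and 18 were shared.

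The cluster on chromosome 14 shows how sites of 1 cluster differed. Its strongest site, at 26306985 to 26307910, scored 170.18 in TRb_PTU and 194.27 in TRb_T3. The site at 26285999 to 26286266 was at percentile 97.6 of the TRb_PTU scores and 86.0 of the TRb_T3 scores. The site at 26353869 to 26354081 was at percentile 51.6 of TRb_PTU and 90.5 of TRb_T3. Among sites with exactly 1 peak of each list, ranked within a list, the TRb_T3 minus TRb_PTU rank ran from -29.97 to 52.7 percentile points along this 1 cluster, and 17 of its 28 pairs ranked higher in TRb_T3.

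A cluster on chromosome 19 from 57000458 to 57021096 was T3-only at all of its 10 sites. One strong peak, at 57007352 to 57007892, scored 274.41, and the other 9 ran from 8.73 to 36.42. Of those 9, 5 lay close together just past the strong peak, between 57008096 and 57009950. The nearest TRb_PTU peak midpoint was 51001 bp from the cluster, and the GFP_PTU list had no peak at these sites.

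The next 2 clusters by T3-only share each held a strong shared site. On chromosome 2 from 153736204 to 153761383, 10 of 11 sites were T3-only, with scores from 9.44 to 111.14. The remaining site was the shared one that scored 441.70 in TRb_T3 and 92.72 in TRb_PTU. On chromosome 6 from 53443290 to 53474476, 13 of 15 sites were T3-only. The shared site at 53446302 to 53446807 scored 276.57 in TRb_T3 and 358.95 in TRb_PTU, so the strong peak was high in both lists while its neighbours were called in TRb_T3 alone. The other shared site, at 53473739 to 53474081, scored 127.81 in TRb_T3 and 6.69 in TRb_PTU.

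Clusters on chromosome 1 from 34160580 to 34197161 and on chromosome 15 from 59525155 to 59560100 each had 8 T3-only and 2 shared sites. The sites on chromosome 1 were modest, with TRb_T3 scores from 11.11 to 41.29. On chromosome 15 the strongest site of TRb_T3, at 59540052 to 59540252, scored 126.88 there and 22.23 in TRb_PTU. The strongest of TRb_PTU, at 59559696 to 59560100, scored 82.55 there and 116.37 in TRb_T3. A further cluster, on chromosome 4 from 119731398 to 119744952, had the same 8 T3-only and 2 shared sites and was tied with these in share and size.

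At the other end, a cluster on chromosome 4 from 88402997 to 88452086 was PTU-only at all of its 16 sites. Its peaks had scores of 39.6 ± 14.1 (mean and SD over the 16 sites of 1 library), the lowest 4.77, the next 27.68 and the highest 63.95. They were evenly spaced. Of the 15 steps between neighbouring midpoints, 13 were between 2861 and 2987 bp, around a median of 2935 bp. The 2 other steps measured 482 and 10289 bp. No other cluster had 50% or more of its steps within 5% of their median, with at least 5 such steps; here it was 86.7%, and the next highest share was 33.3%. The nearest TRb_T3 peak midpoint lay 12687 bp outside, just beyond the 12.5 kb within which the rule would have chained it in. Whether this place holds repeated sequence was not tested.

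The other PTU-only clusters were irregular in spacing and score. On chromosome 17 from 27747263 to 27787773, 10 of 11 sites were PTU-only, with scores from 7.38 to 68.74. The shared site there scored 52.61 in TRb_PTU and 38.05 in TRb_T3. On chromosome 3 from 94162055 to 94187633, 10 of 12 sites were PTU-only, among them the strongest one at 94179188 to 94179438, with a score of 120.90. On chromosome 4 from 106572848 to 106611414, 10 of 12 sites were PTU-only with scores from 5.48 to 65.38. The strongest site there, at 106611161 to 106611414, was shared, with 195.96 in TRb_PTU and 81.16 in TRb_T3. On chromosome 19 from 7252347 to 7292320, 10 of 12 sites were PTU-only, and the strongest, at 7271370 to 7271828, was shared with 63.57 in TRb_PTU and 12.46 in TRb_T3.

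**Figure D4:**
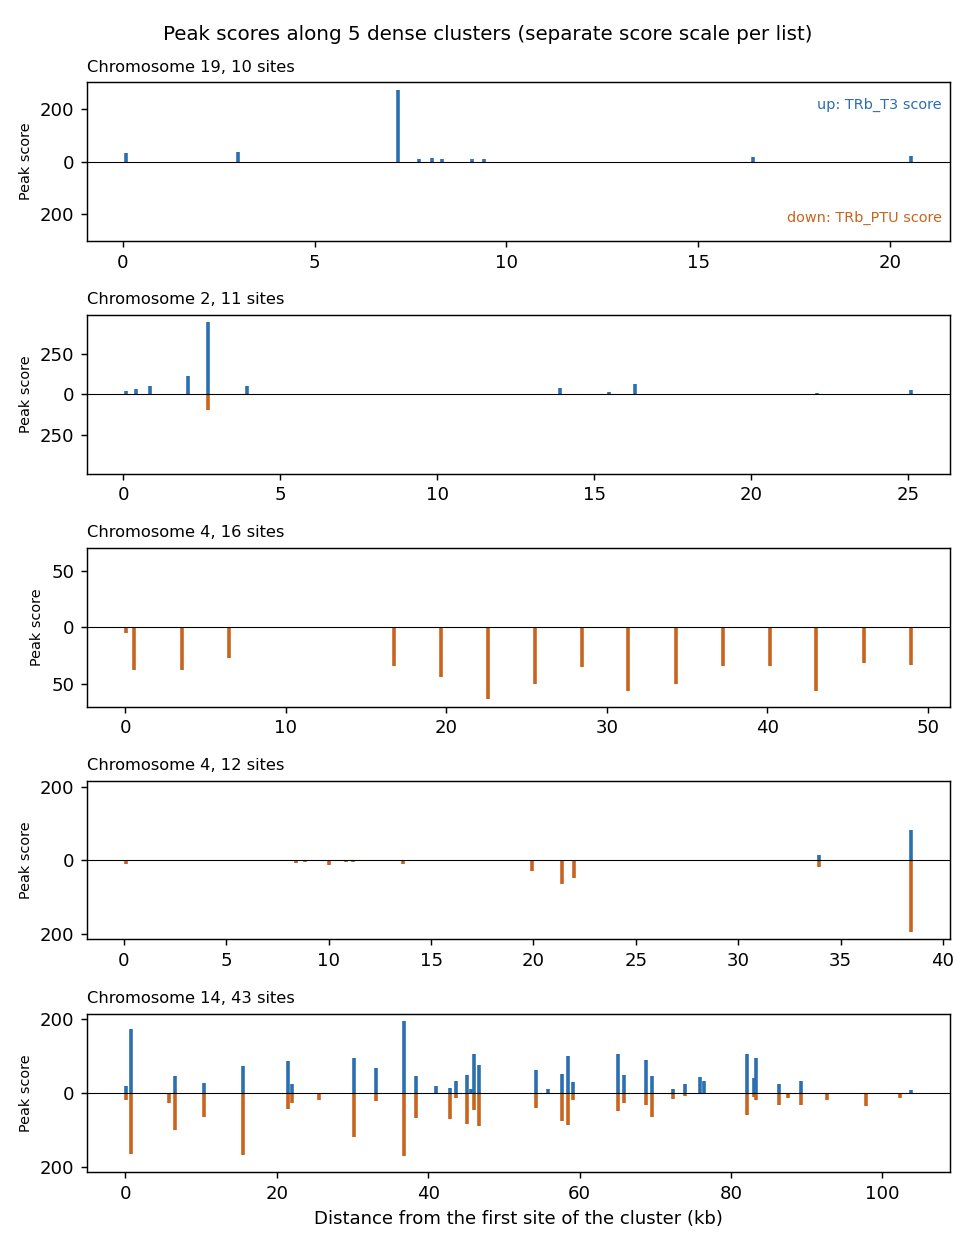
Peak scores along 5 dense clusters, with distance from the first site in kb on the x axis, TRb_T3 scores drawn upwards and TRb_PTU scores downwards; scores of the 2 lists are not on a common scale. From the top: the all T3-only cluster of chromosome 19 with its single peak of 274.41, the chromosome 2 cluster around a shared site, the evenly spaced PTU-only cluster of chromosome 4, the second chromosome 4 cluster, and the mostly shared cluster of chromosome 14.

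The third comparison asked whether shared sites in clusters were ranked alike in both hormone states. It used the sites made of exactly 1 peak of each list, 26670 in all and 7025 in dense clusters, ranked among the 26670 within each list. Over all such pairs 48.9% ranked higher in TRb_T3, and in dense clusters 3297 did (46.9%, 45.8 to 48.1%). Ranking the same pairs in both lists makes the differences over all pairs cancel out, so a general lean to a hormone state cannot be seen here. A move of over 30 percentile points was seen in 28.6% of all pairs and in 27.2% of pairs in clusters (26.2 to 28.3%). The Spearman correlation of the scores of both lists was 0.56 across the pairs in clusters and 0.49 across the 19645 other pairs, a description across sites of the same libraries.

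In the 776 clusters with at least 5 pairs, the median rank difference of a cluster, TRb_T3 minus TRb_PTU, ran from -44.3 to 44.1 percentile points, with quartiles of -9.86 and 5.33. All pairs ranked higher in TRb_T3 in 23 clusters and higher in TRb_PTU in 22. The median SD of the rank difference within a cluster was 24.7 points. Of the variance of the rank difference, 8.06% lay between clusters (6052 pairs). Rank differences of neighbouring pairs correlated with a Spearman coefficient of 0.26 at gaps up to 500 bp (752 pairs of neighbours), 0.17 up to 2000 bp, 0.13 up to 5000 bp and 0.03 beyond (663 pairs of neighbours). In chains of 2 to 9 sites the coefficients were 0.26, 0.23, 0.15 and 0.11, so this fall with distance was not particular to dense clusters.

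**Figure D5:**
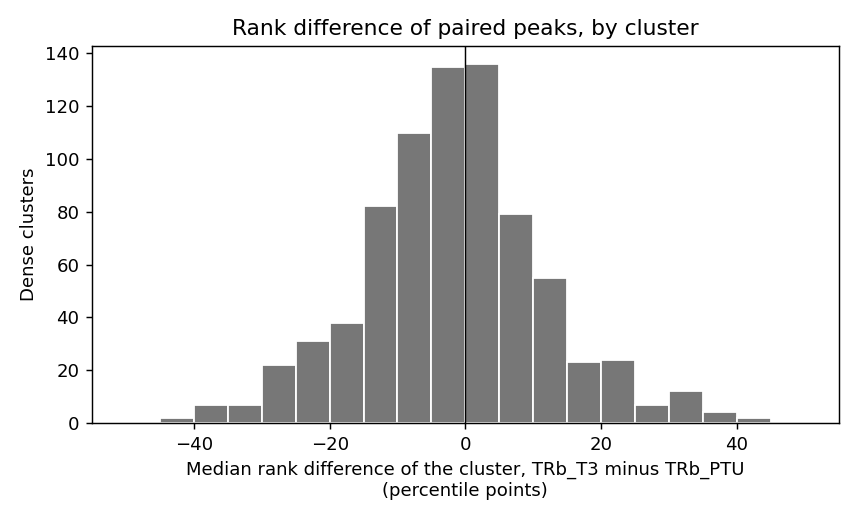
Number of dense clusters (y axis) by the median rank difference of their paired peaks, TRb_T3 minus TRb_PTU, in percentile points (x axis, bins of 5 points), for the 776 clusters with at least 5 pairs. The distribution is centred near 0, with a median of -1.12 points and extremes of -44.3 and 44.1. Ranking the same pairs in both lists makes the differences over all pairs cancel out, so a centre near 0 is largely built in.

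The clusters with the largest moves towards TRb_T3 lay on chromosome 4 from 137875448 to 137925021 (median 44.1 points, 4 of 5 pairs higher in TRb_T3), chromosome 11 from 68872619 to 68916085 (41.5 points, 3 of 5), chromosome 6 from 136852595 to 136877575 (38.0 points, 5 of 5), chromosome 12 from 8502800 to 8518393 (36.7 points, 4 of 6) and chromosome 13 from 91880538 to 91909202 (36.5 points, 4 of 5). These clusters, and those with the largest moves towards TRb_PTU below, are the extremes of 776 medians, each over 5 to 9 pairs. How much of such moves is scatter between the pairs of a cluster was not tested. The moves are of paired sites alone, and the single-list sites did not always lean the same way. PTU-only sites outnumbered T3-only sites on chromosome 4 (6 and 3) and chromosome 11 (10 and 2). The reverse held on chromosome 6 (2 and 4) and chromosome 13 (1 and 4), and chromosome 12 had 2 of each. The cluster on chromosome 4 also held a strong move the other way. Its site at 137881343 to 137881873 scored 84.15 in TRb_PTU and 4.79 in TRb_T3, while the site at 137899115 to 137899422 scored 48.55 in TRb_PTU and 118.91 in TRb_T3.

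The largest moves towards TRb_PTU were on chromosome 12 from 81204206 to 81233919 (-44.3 points, 1 of 5 pairs higher in TRb_T3), chromosome 15 from 85430684 to 85513506 (-40.2 points, 3 of 9), chromosome 9 from 61644997 to 61696540 (-39.7 points, 1 of 6), chromosome 18 from 84240273 to 84261966 (-38.9 points, 1 of 5) and chromosome 19 from 7195743 to 7234906 (-37.5 points, 1 of 7). The last of these was the neighbour of the PTU-only cluster on chromosome 19 named above, which began at 7252347. Its strongest site, at 7229563 to 7229897, scored 231.93 in TRb_PTU and 19.98 in TRb_T3, and the site at 7234567 to 7234906 scored 179.86 and 14.04. The pair that ranked higher in TRb_T3 was at 7211138 to 7211615, with 6.68 in TRb_PTU and 18.80 in TRb_T3.

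Sites of the control livers were rare in the clusters. Of the 107 GFP_PTU peaks, 10 overlapped a dense cluster site, at 9 sites in 9 clusters (0.0583% of members, 0.0267 to 0.111%), against 0.143% of the other union sites (0.113 to 0.179%). Of these 9 sites 4 were shared and 5 were PTU-only. The shared ones included the site on chromosome 15 at 59479564 to 59480351, which scored 8.77 in GFP_PTU, 91.27 in TRb_PTU and 65.42 in TRb_T3. They also included the site on chromosome 14 at 26308804 to 26309190, inside the cluster of 43 sites described above, with a GFP_PTU score of 2.01.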

How the data were processed

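The deposited files are peak lists, 1 for each of the 3 ChIP samples, and the 3 input samples were not analysed here. The submitters' processing notes name Bowtie, SAMtools, MACS2 and mm9, without versions or settings, and the control library used for calling is not stated there. Each peak has a score that the authors deposited with it, whose statistic the files leave unnamed. Depth is unknown.

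Groups came from sample titles. Union sites, chains and classes were computed as described above with pandas 2.3.3, scipy 1.17.1 and numpy 2.4.6 under Python 3.11.15, and tested on simulated data. The 5 left-out regions lay on chromosomes 4, 8, 10, 11 and 17 and held 794 sites. Score percentiles are ranks within a list. Clusters named are the 10 with the most sites, 5 each with the largest T3-only and PTU-only share (ties by number of sites; a further tie is named), and 5 each with the largest median rank difference either way with at least 5 pairs; sites named are the 10 highest-scored of each list. The sites of chromosome 14 shown in detail, the GFP sites and the test of even spacing were chosen after the values were seen. The rule for members, and the lists, were chosen with earlier results of these data known. Gene positions and receptor elements were planned and not run, since they need the mm9 genome, which was not used here. Alternatives were the score threshold, equal list sizes, the chain gap and size, the left-out regions, GFP sites and the overlap rule.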

Additional observations from a re-analysis of the deposited data

How the results depend on the processing

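No paired analysis was possible because there was only 1 library for a condition. Alternatives for receptor elements and genes were not run, because they need the mm9 genome. The number of member sites (15432) and clusters (1070) was 1863 and 156 when peaks under the median score were dropped, 2807 and 230 with a chain gap of 5 kb, 32777 and 1823 with 25 kb, 7198 and 360 with 15 or more sites, and 3540 and 140 with 20 or more. The shared share (46.9%) was 47.9% with equal numbers of peaks, 49.7 and 44.3% with gaps of 5 and 25 kb, and 47.7 and 48.2% with 15 and 20 or more sites. The PTU-only share (31.8%) was 33.5% without peaks under the median score, 26.7% with equal numbers, 33.6% with a gap of 25 kb, and 32.6 and 33.1% with 15 and 20 or more sites. The T3-only share (21.3%) was 19.1, 25.4, 22.2, 19.7 and 18.6% under these same settings and 19.1% with a gap of 5 kb. Equal numbers of peaks thus nearly closed the distance between PTU-only and T3-only sites. Peaks above the list median (54.1% in TRb_PTU, 53.5% in TRb_T3) were 57.2 and 56.7% with the median filter. With chains built from 1 list, overlapped shares were 57.1% in TRb_PTU (59.9%) and 64.7% in TRb_T3 (69.2%). The differences in overlapped share from solitary peaks (15.5 and 19.5 points) were then 7.55 and 8.56 points, and 9.12 and 15.3 points as means over score deciles, and 2.07 and 3.53 points with both; these were chosen after seeing the data. The difference in shared share from solitary sites (16.5 points) ran from 15.4 to 17.8 points over its 9 alternatives. All 9 built chains from both lists, so this range cannot show how much of the difference came from that rule. As read depth is unknown, numbers of peaks in the lists cannot be weighed against each other.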

Other observations

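Dense clusters sometimes stood in rows. The next cluster on the chromosome began within 100 kb for 193 of 1049 clusters (18.4%, 16.1 to 20.9%), while the median distance was 634557 bp. There were 155 rows of at least 2 clusters and 27 of at least 3. The longest row by number had 6 clusters with 116 sites, on chromosome 5 from 125533532 to 125978872, of which 48 sites were shared, 43 PTU-only and 25 T3-only. Rows of 5 lay on chromosome 6 from 72090527 to 72588903, with 99 sites (49 shared, 39 PTU-only, 11 T3-only), and on chromosome 2 from 27056909 to 27620687, with 83 (37, 28 and 18). A row of 4 on chromosome 10 from 79128753 to 79459347, just before a left-out region, had 33 PTU-only and 4 T3-only of 61 sites. Across the 193 neighbouring pairs of clusters within 100 kb, the PTU-only minus T3-only share correlated with a Spearman coefficient of 0.31, a description of clusters from the same libraries.

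Chromosome X, which the rule leaves out, had 3 chains of 10 or more among 879 union sites. They began at 34334662 (14 sites, 5 shared), 35805141 (10 sites, 5 shared) and 137028131 (23 sites, 8 shared, 10 PTU-only and 5 T3-only).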
